A study of Mus musculus with 18 samples.

Results

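Atf3, Atf4, Atf5, Ddit3 and Jdp2 (named Jundm2 in the array's annotation) are the stress-linked basic leucine zipper (bZIP) transcription factors described here, and they are 5 of the 16675 genes that the arrays measured by name. They were chosen by gene symbol, not by their values, although the study itself had already picked Atf3, Atf4, Atf5 and Ddit3 out of these samples. Each was measured by 1 probe. NMuMG cells, an epithelial line from normal mouse mammary gland, received 10 nM halofuginone (HF), a derivative of the plant product febrifugine, or 10 nM MAZ1310, described in the labels as an analog of HF without activity. Both compounds were given in acidified DMSO to freshly plated cells in medium with serum and insulin, and RNA was taken after 8 hr. Each treatment had 3 biological replicate cultures and each culture 3 technical arrays, so 18 one-color arrays were compared as 6 cultures. No untreated or vehicle group was analysed here, so each difference is between HF and MAZ1310.

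bZIP factors bind DNA as dimers, and the pairing decides which sites they reach. In the integrated stress response, kinases that sense amino acid shortage, unfolded protein, double-stranded RNA or heme shortage phosphorylate the initiation factor eIF2, which lowers general translation but favors translation of mRNAs with upstream open reading frames, among them those of Atf4 and Atf5. Atf4 pairs mainly with C/EBP proteins and turns on genes of amino acid supply through C/EBP-ATF composite elements (CAREs). Ddit3 (CHOP) is a C/EBP relative linked to cell death under lasting stress. Atf3 and Jdp2 are closely related factors that bind cyclic AMP response elements and AP-1 sites and often repress. Arrays measure mRNA, and the protein level of these factors was not analysed here.

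All 5 factors had a higher mean level in HF than in MAZ1310 cultures, and 4 of them passed the test. Atf5 was 13.6-fold higher and Ddit3 11.7-fold higher, the largest and second-largest increases among all 16675 genes when probes of a gene are summarized by their median. Among all single probes they ranked 2 and 4, behind a probe of Car6 (log2 fold change 4.28) and, for Ddit3, a probe of Ndrg1 (3.5496 against 3.5467). Atf3 was 2.43-fold and Atf4 2.05-fold higher. Jdp2 was 1.47-fold higher and did not pass. Each gene was tested with limma on the log2 intensities of 3 HF against 3 MAZ1310 cultures, with Benjamini-Hochberg adjustment over all genes and a threshold of 0.05. Over all genes, 242 (1.45%) passed as higher in HF and 262 (1.57%) as lower, and the median log2 fold change was -0.0020. At an unadjusted limma p under 0.05, 7.94% of all genes were higher and 8.53% lower. Tested probe by probe, 1.15% of 21973 probes passed as higher, and the same 4 factors did. Since the study named these 4 from the same samples, their count is no independent evidence. In bulk cultures, more cells that express a gene and more RNA per cell cannot be told apart.

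**Figure D1:**
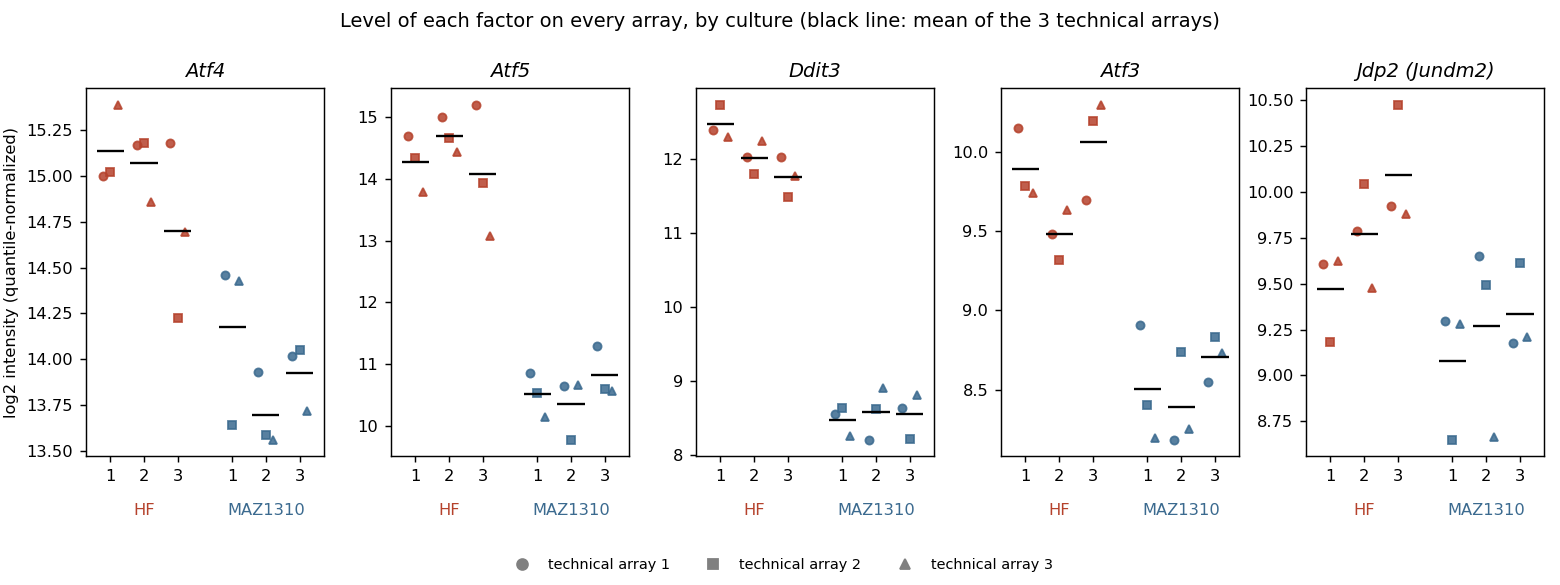
Log2 intensity (quantile-normalized, vertical axis, with its own range in each panel) of Atf4, Atf5, Ddit3, Atf3 and Jdp2 on each of the 18 arrays, grouped by culture with HF on the left and MAZ1310 on the right; point shapes mark the technical array number and black lines the mean of the 3 technical arrays. All 9 HF arrays lie above all 9 MAZ1310 arrays for Atf5, Ddit3 and Atf3, while single arrays of both treatments overlap for Atf4 and Jdp2.

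The promoters of the 5 genes were searched on both strands for sites that bZIP factors, not only these 5, are known to bind. The RefSeq windows held 250 bases before and 50 bases after each annotated start (GRCm38.p6). The search covered the CARE (TGATGNAA), the cyclic AMP response element (CRE, TGACGTCA), a CRE-like form (TGACGTAA), AP-1 (TGACTCA or TGAGTCA) and the endoplasmic reticulum (ER) stress element. No stretch can match more than 1 of the first 4. These sequences were in 3.97%, 1.79%, 0.499%, 5.2% and 0.119% of 32851 mouse promoter windows. The motifs were chosen with the sequences in view. Atf3 held a CARE at bases -110 to -103 and a CRE-like match at -10 to -3 from its start, both read on the other strand. Jdp2 held a CARE at -33 to -26 in 1 of its 3 windows, and Ddit3 an AP-1 match at -242 to -236. No match was found in the 1 window of Atf4 or the 2 windows of Atf5, which says only that these letters are not in those windows. The stretches with matches are shown because they hold sites that factors of this family are known to bind, 5′ to 3′ on the gene's strand, with the matches in capitals. The first is the 250 bases before the Atf3 start (chr1:191183334-191183583, minus strand), the second the 250 bases before the Ddit3 start (chr10:127290543-127290792, plus strand) and the third 30 bases around the Jdp2 match (chr12:85599372-85599401, plus strand).
Atf3: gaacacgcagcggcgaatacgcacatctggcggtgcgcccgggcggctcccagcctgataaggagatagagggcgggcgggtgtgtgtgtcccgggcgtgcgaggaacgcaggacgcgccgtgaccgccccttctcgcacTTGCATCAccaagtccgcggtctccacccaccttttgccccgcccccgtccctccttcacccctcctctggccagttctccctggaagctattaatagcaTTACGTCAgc
Ddit3: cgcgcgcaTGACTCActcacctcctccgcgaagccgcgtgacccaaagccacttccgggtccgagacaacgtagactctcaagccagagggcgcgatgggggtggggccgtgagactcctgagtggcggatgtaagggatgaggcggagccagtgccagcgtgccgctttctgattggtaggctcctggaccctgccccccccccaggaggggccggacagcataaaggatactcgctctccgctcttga
Jdp2: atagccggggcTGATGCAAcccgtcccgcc
A match is a description of the sequence and does not show that a factor was bound there in these cells.

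Atf4, the factor whose translation is controlled through eIF2, lies on chromosome 15 (80255184 to 80257545, GRCm38.p6) and was measured by probe mMC018611. Its log2 intensity was 15.14, 15.07 and 14.70 in HF cultures 1, 2 and 3, against 14.17, 13.69 and 13.93 in MAZ1310 cultures 1, 2 and 3. Every HF culture was above every MAZ1310 culture, with HF culture 3 the lowest of its treatment. The mean was 14.97 ± 0.236 in HF and 13.93 ± 0.241 in MAZ1310 (SD, n = 3 each). The log2 fold change was 1.04, with a standard error (SE) of 0.184 and a 95% confidence interval (CI) of 0.60 to 1.47 (limma adjusted p = 0.0367). It passed only without MAZ1310 culture 1 among the fits that left out 1 culture: the limma adjusted p was 0.104, 0.13 and 0.0557 without HF culture 1, 2 or 3, and 0.118 and 0.112 without MAZ1310 culture 2 or 3. On single arrays its intensity ran between 19133 and 42912 in HF and between 12092 and 22492.5 in MAZ1310. The overlap came from 1 HF array, technical array 2 of culture 3, which read below technical arrays 1 and 3 of MAZ1310 culture 1. No array reached the highest value in the table, 65535.

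Atf5, a second factor with upstream open reading frames and one that Atf4 and Ddit3 are known to induce, lies on chromosome 7 (44812256 to 44816658, GRCm38.p6) and was measured by probe mMC006540. Its log2 intensity was 14.27, 14.69 and 14.07 in HF cultures 1, 2 and 3, against 10.52, 10.37 and 10.83 in MAZ1310 cultures 1, 2 and 3. The lowest HF culture was 3.24 above the highest MAZ1310 culture on the log2 scale. Means were 14.34 ± 0.318 in HF and 10.57 ± 0.235 in MAZ1310 (SD, n = 3 each). Its log2 fold change was 3.77 (SE 0.205, 95% CI 3.29 to 4.25, limma adjusted p = 0.00116), which is a fold of 9.76 to 19.0 over that interval. Array intensities ran between 8591 and 37478 in HF and between 885 and 2520.4 in MAZ1310. The technical arrays of 1 culture spread more for Atf5 (SD 0.574 on the log2 scale) than for any of the other 4 factors (0.266 to 0.349). Technical array 1 was the highest in 5 of 6 cultures and technical array 3 the lowest in 5 of 6.

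Ddit3 (CHOP), which Atf4 is known to induce, lies on chromosome 10 (127290793 to 127296291, GRCm38.p6) and was measured by probe mMC006285. Its log2 intensity was 12.47, 12.01 and 11.75 in HF cultures 1, 2 and 3, against 8.47, 8.57 and 8.55 in MAZ1310 cultures 1, 2 and 3. The MAZ1310 cultures lay within 0.10 of each other, whereas the HF cultures spanned 0.72. The mean was 12.08 ± 0.364 in HF and 8.53 ± 0.0524 in MAZ1310 (SD, n = 3 each). The log2 fold change was 3.55 (SE 0.195, 95% CI 3.09 to 4.0, limma adjusted p = 0.00116), which corresponds to 8.51-fold to 16.1-fold. Intensities on single arrays were 2857 to 6800.1 in HF and 295 to 479 in MAZ1310.

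Atf3, a target of Atf4 that represses or activates according to its partner, lies on chromosome 1 (191170296 to 191183333, GRCm38.p6) and was measured by probe mMC009367. Its log2 intensity was 9.89, 9.48 and 10.07 in HF cultures 1, 2 and 3, against 8.50, 8.39 and 8.70 in MAZ1310 cultures 1, 2 and 3. Means were 9.81 ± 0.301 in HF and 8.53 ± 0.159 in MAZ1310 (SD, n = 3 each). The log2 fold change was 1.28 (SE 0.186, 95% CI 0.84 to 1.72, limma adjusted p = 0.0217). Arrays ran between 639 and 1261 in HF and between 291 and 481 in MAZ1310, with no overlap. It did not pass without HF culture 1 or 3 (limma adjusted p 0.075 and 0.0617) or without MAZ1310 culture 2 or 3 (0.092 and 0.0628), and passed without either of the other 2 cultures.

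Jdp2, a repressor that pairs with Jun proteins and is the closest relative of Atf3, lies on chromosome 12 (85598656 to 85639878, GRCm38.p6) and was measured by probe mMC007439. Its log2 intensity was 9.47, 9.77 and 10.09 in HF cultures 1, 2 and 3, against 9.08, 9.27 and 9.33 in MAZ1310 cultures 1, 2 and 3. The lowest HF culture was 0.14 above the highest MAZ1310 culture. Means were 9.78 ± 0.311 in HF and 9.23 ± 0.133 in MAZ1310 (SD, n = 3 each). The log2 fold change was 0.55 (SE 0.185, 95% CI 0.12 to 0.99, limma unadjusted p = 0.0195, adjusted p = 0.186). Single arrays overlapped, at 581 to 1426 in HF and 402 to 803 in MAZ1310, and 5 of 9 HF arrays were above all MAZ1310 arrays. For all 5 factors the HF cultures lay above the MAZ1310 cultures, which 11.2% of all genes also did. All 9 HF arrays lay above all 9 MAZ1310 arrays for Atf5, Ddit3 and Atf3, as for 1.69% of all genes.

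The cultures of HF did not rank the factors alike. HF culture 1 had the highest Ddit3 and Atf4 levels and the lowest Jdp2 level, whereas HF culture 3 had the highest Jdp2 and Atf3 levels and the lowest Ddit3, Atf4 and Atf5 levels. Part of this order was also seen without HF. MAZ1310 culture 1 had the highest Atf4 and the lowest Jdp2 level, and MAZ1310 culture 3 the highest Jdp2 and Atf3 levels. Other parts differed: MAZ1310 culture 1 had the lowest Ddit3 level, culture 2 the lowest Atf4 level and culture 3 the highest Atf5 level. Replicates have no order, and with 3 cultures these contrasts are given as values only.

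**Figure D2:**
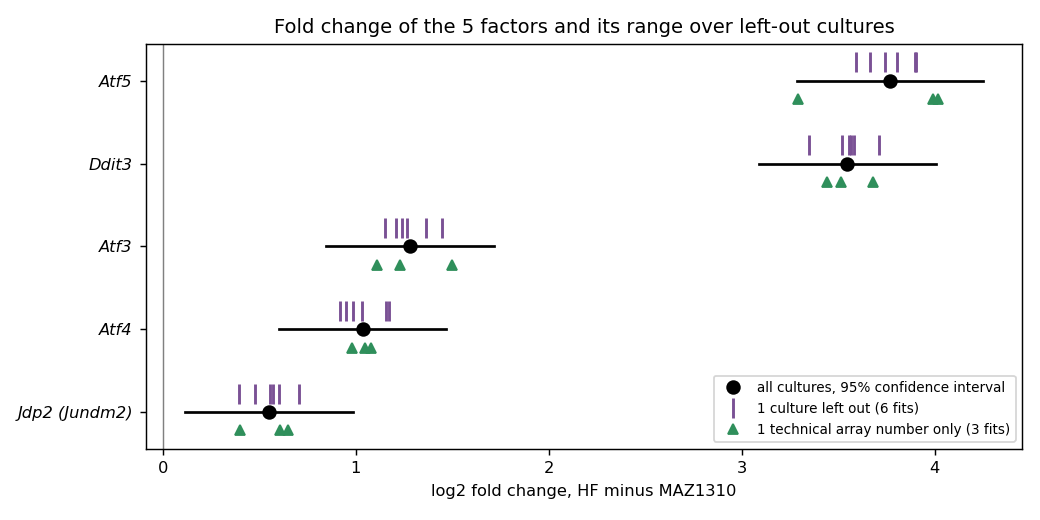
Log2 fold change, HF minus MAZ1310 (horizontal axis), of Atf5, Ddit3, Atf3, Atf4 and Jdp2: black points with 95% confidence intervals from all 6 cultures, violet ticks from 6 fits with 1 culture left out and green triangles from 3 fits with 1 technical array number only. Atf5 and Ddit3 stay above 3 in every fit, Atf3 and Atf4 lie between 0.92 and 1.5, and Jdp2 lies between 0.39 and 0.71.

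Fold changes were compared pair by pair within cultures, over all 10 pairs of the 5 factors, with an exact two-sided permutation test that cannot go below p = 0.1 with 3 against 3 cultures. The log2 fold change of Atf5 minus that of Ddit3 was 0.22 (SE 0.292, exact p = 0.5, also 0.5 after adjustment over the 10 pairs), so the first 2 places were not separated. Ddit3 minus Atf3 was 2.27 (SE 0.305, exact p = 0.1, adjusted 0.143), the smallest p the design allows. Atf3 minus Atf4 was 0.24 (SE 0.312, exact p = 0.5), and without HF culture 3 it was -0.017. Atf4 minus Jdp2 was 0.48 (SE 0.371, exact p = 0.2, adjusted 0.25), and Atf3 minus Jdp2 was 0.73 (SE 0.228, exact p = 0.1).

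The technical array number moved with the size of the Atf5 difference. Using technical arrays 1, 2 and 3 separately, its log2 fold change was 4.02, 3.99 and 3.29. For Ddit3 it was 3.68, 3.52 and 3.44, and for Atf3 1.23, 1.11 and 1.5. Atf4 gave 0.98, 1.05 and 1.08, and Jdp2 0.40, 0.65 and 0.61. Over all genes, deviations from the culture mean were correlated between arrays of different cultures. Arrays with the same technical number had a median correlation of 0.102 (45 pairs, -0.368 to 0.555). Those with different numbers had one of -0.0742 (90 pairs, -0.492 to 0.513), so the ranges overlapped widely. Deviations within a culture cancel out, so these medians are tied to each other. The labels do not say what the number marks, and each number holds both treatments equally.

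**Figure D3:**
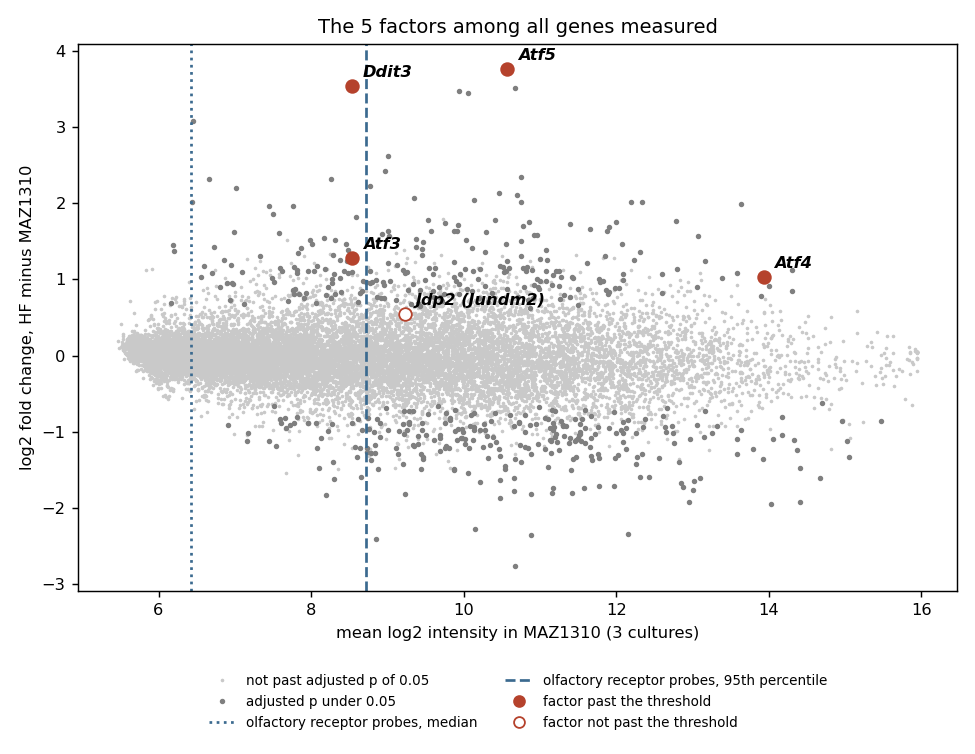
Log2 fold change, HF minus MAZ1310 (vertical axis), against the mean log2 intensity in the 3 MAZ1310 cultures (horizontal axis) for all 16675 genes, with genes past an adjusted p of 0.05 in dark grey and the 5 factors in red, filled where they passed. Atf5 (3.77) and Ddit3 (3.55) are the highest points, Atf4 lies far to the right among bright genes, and the MAZ1310 means of Ddit3 and Atf3 lie left of the 95th percentile of olfactory receptor probes (dashed line, 8.72).

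The table gives no detection call, so the 703 probes of olfactory receptors, genes of sensory neurons, served as a scale of dim signal. Their median log2 intensity was 6.43 and their 95th percentile 8.72. The MAZ1310 means of Ddit3 and Atf3, both 8.53, were below that percentile, while their HF means were above it. Probes differ in brightness, so this does not show that either gene was off in MAZ1310 cultures. Array medians lay between 7.96 and 7.97 after the authors' normalization. Of 10 epithelial markers none passed limma (1 was higher at an unadjusted p under 0.05), and Cdh1 (E-cadherin) was at 13.68 in HF and 13.41 in MAZ1310. Epcam, listed under its older symbol Tacstd1, was dim at 6.07 in HF and 5.94 in MAZ1310, and 4 of the 10 markers were below the olfactory receptor percentile. None of 11 measured markers of fibroblasts, leukocytes, endothelial cells or adipocytes passed limma, also none at an unadjusted p under 0.05, and 10 of them were below that percentile. The summed intensity of these 11 ran between 1383 and 2000 in HF cultures and between 1496 and 2383 in MAZ1310 cultures, and its part in the results was not tested.

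Genes with the culture pattern nearest to each factor were found by the root mean square (RMS) difference of log2 levels over the 6 cultures, each gene set relative to its MAZ1310 mean. For Ddit3 these were Ndrg1 (RMS difference 0.209), a stress-responsive gene linked to hypoxia and differentiation, Trib3 (0.292), a pseudokinase that Atf4 and Ddit3 induce, and Atp13a4 (0.457), a P-type ATPase. For Atf5 they were Ndrg1 (0.351), Trib3 (0.462) and Nupr1 (0.477), a small stress-induced chromatin protein. No gene came within 0.2 of Atf5 or Ddit3, and the distance between them was 0.331. The 4 genes named for them had log2 fold changes of 3.48 (Ndrg1), 3.44 (Trib3), 3.52 (Nupr1) and 3.08 (Atp13a4). Ndrg1 and Trib3 are also among the genes the study picked from these samples.

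Atf3 was nearest to Slc26a11 (RMS difference 0.111), an anion transporter, Lhfpl2 (0.142) and Nfe2l1 (0.16), itself a bZIP factor that drives proteasome genes, and 12 genes lay within 0.2 of it. Atf4 was nearest to Adh7 (0.0705), an alcohol dehydrogenase, Iqgap1 (0.111), a cytoskeletal scaffold, and Zfp639 (0.111), with 25 genes within 0.2. Jdp2 was nearest to Col9a3 (0.0398), Atp2a3 (0.049) and Cldn12 (0.0529), and 498 genes lay within 0.2 of it. Atf3 and Atf4 differed from each other by 0.357. The distances describe these 6 cultures only.

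Few of the other bZIP factors on the arrays passed. Of 43 others measured of 48 listed, 2 were higher, none was lower and 41 did not pass, against 1.45% and 1.57% of all genes, and their median log2 fold change was 0.11. At an unadjusted limma p under 0.05, 9 of the 43 were higher and 2 lower, beside 7.94% and 8.53% of all genes. Creb3l4, a membrane-bound CREB factor, had a log2 intensity of 7.64 in HF and 6.19 in MAZ1310 (log2 fold change 1.45, SE 0.131, limma adjusted p = 0.00558). Nfe2l1 was at 12.36 in HF and 11.25 in MAZ1310 (log2 fold change 1.11, limma adjusted p = 0.0217). Of 6 C/EBP genes listed only 2 were measured, and neither passed, with 1 higher at an unadjusted limma p under 0.05 (7.94% of all genes). Cebpb, a main partner of Atf4 and Ddit3, had a log2 fold change of 0.49 (limma unadjusted p = 0.0218, adjusted p = 0.196) and Cebpa one of 0.18. None of the 10 AP-1 factors (Fos, Jun and Batf proteins) passed limma. At an unadjusted limma p under 0.05, 2 were higher (7.94% of all genes), and the median log2 fold change of the 10 was 0.09. The lowest value among the 43 belonged to Xbp1, the factor of the ER stress sensor Ire1, at -1.10 (limma adjusted p = 0.0511), a gene named after its value was seen.

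**Figure D4:**
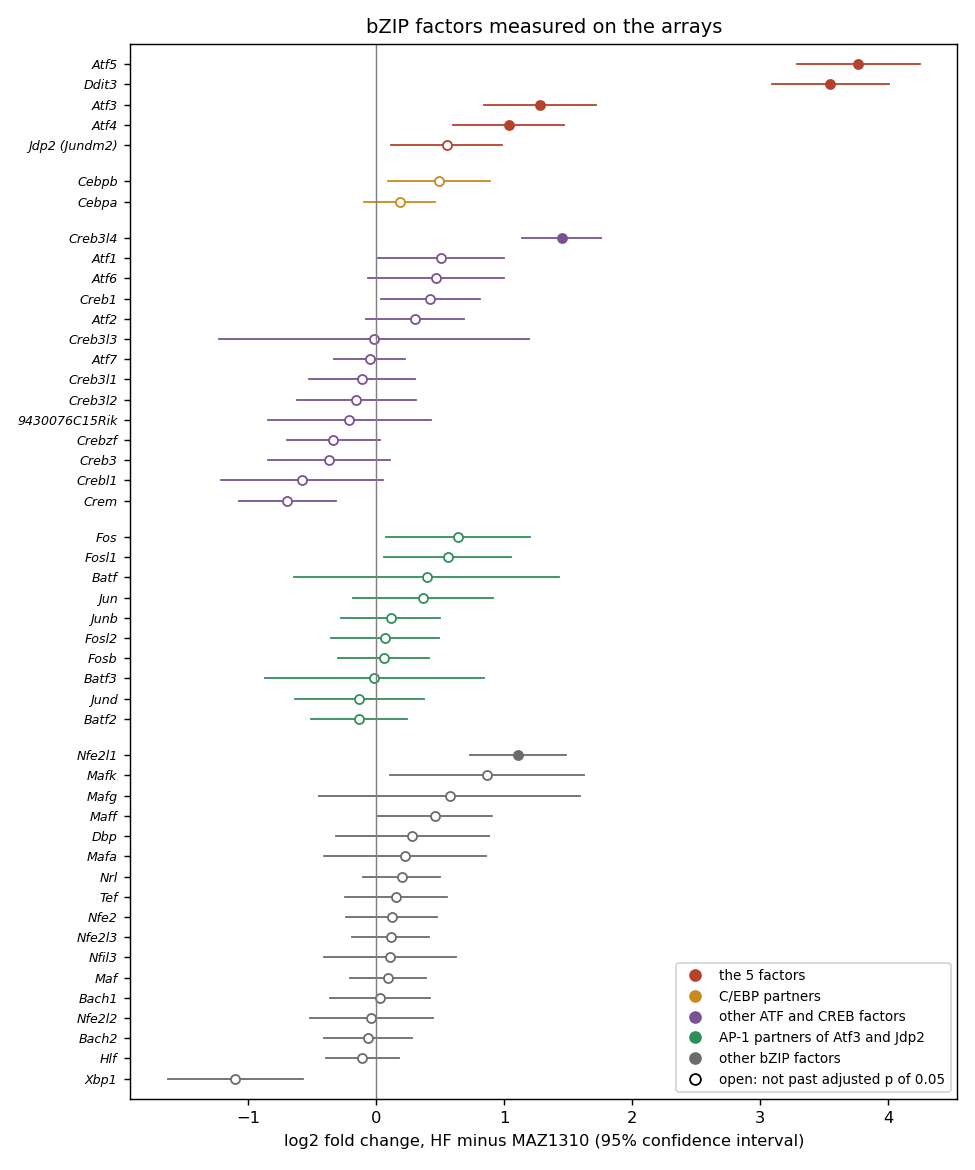
Log2 fold change, HF minus MAZ1310, with 95% confidence interval (horizontal axis) of the 5 factors and the 43 other bZIP factors measured, by group (colors), with open points for those that did not pass an adjusted p of 0.05. Filled points outside the top group are Creb3l4 (1.45) and Nfe2l1 (1.11), and the other 41 factors lie between -1.10 for Xbp1 and 0.87 for Mafk.

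Upstream of the 5 factors, 1 of 16 genes of eIF2 phosphorylation and eIF2 regulation passed as higher (1.45% of all genes), none passed as lower and 15 did not pass, with a list median of -0.07. At an unadjusted limma p under 0.05, 2 were higher and 3 lower, beside 7.94% and 8.53% of all genes. The gene that passed was Ppp1r15a (Gadd34, symbol Myd116 on the array), the phosphatase subunit that restores eIF2 and is itself induced by Atf4 and Ddit3. It was at 11.40 in HF and 8.97 in MAZ1310 (log2 fold change 2.43, SE 0.15, limma adjusted p = 0.00141). The 4 eIF2 kinases, named for their role after their values were seen, did not pass: the log2 fold change was 0.36 for Eif2ak4 (Gcn2, amino acid shortage), 0.01 for Eif2ak1 (Hri), -0.18 for Eif2ak3 (Perk, ER stress) and -1.06 for Eif2ak2 (Pkr). These are mRNA levels, and the kinases act by phosphorylation, which arrays do not measure.

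Downstream, 16 of 45 measured targets of Atf4 and Ddit3 (48 listed) passed limma as higher in HF, none as lower and 29 did not pass. Over all genes, 1.45% passed as higher and 1.57% as lower. At an unadjusted limma p under 0.05, 26 of the 45 were higher and none lower, beside 7.94% and 8.53% of all genes. The list had a median log2 fold change of 0.78, beside -0.0020 over all genes. Asns, Trib3, Slc7a11, Ero1l, Gadd45a, Wars, Yars and Car6 of this list were also picked by the study from these samples, so the count is no independent evidence. Of these picked genes, Wars, Ero1l and Slc7a11 did not pass here (limma adjusted p 0.0642, 0.0734 and 0.0829). The smallest p values belonged to Ppp1r15a, to Car6, a secreted carbonic anhydrase (log2 fold change 2.20, limma adjusted p = 0.0039), and to Trib3 (3.44, limma adjusted p = 0.0047). The 2 probes of Car6 disagreed, at 0.12 and 4.28. Of 12 measured mitochondrial chaperones and proteases (14 listed), a group that Atf5 is known to regulate, Hspa9 (mortalin) passed as higher with 0.85 (limma adjusted p = 0.0387). None passed as lower and 11 did not pass, beside 1.45% of all genes higher and 1.57% lower. The list median was 0.29. At an unadjusted limma p under 0.05, 4 of the 12 were higher and none lower, beside 7.94% and 8.53% of all genes. Of 17 ER chaperones and related genes controlled through Atf6 and Xbp1, none passed limma as higher, 2 as lower and 15 did not pass. The shares over all genes were again 1.45% higher and 1.57% lower. At an unadjusted limma p under 0.05, none was higher and 7 were lower, beside 7.94% and 8.53% of all genes. The list median was -0.34. The 2 that passed as lower were Creld2 (-1.02, limma adjusted p = 0.0256) and Pdia4, a protein disulfide isomerase (-0.87, limma adjusted p = 0.0363).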

How the data were processed

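NMuMG cells were profiled after 10 nM HF or 10 nM MAZ1310 on Phalanx Mouse OneArray one-color arrays. The deposited values are linear intensities, which the authors had quantile-normalized after removing probes that were negative or missing on at least 1 array. The scanner and the background correction are not given in the sources used here. The 21973 probes were named through the platform annotation, in which 21020 carry 1 gene symbol and 953 none. Intensities were log2-transformed, the median over probes taken per gene (16675 genes) and the 3 technical arrays averaged per culture, without a filter on dim probes. HF and MAZ1310 cultures (n = 3 each) were compared with limma 3.58.1 in R 4.3.3, by gene and by probe, with Benjamini-Hochberg adjustment. Precision depends on how many cultures there were. Over all genes, the log2 SD between cultures of a treatment, each the mean of its 3 technical arrays, had a median of 0.226. Between single technical arrays of a culture the median was 0.26, so these values are not directly comparable. Scripts were tested on simulated data.

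The 5 factors and the gene lists were chosen with earlier results of these data known. Named besides the factors were the 3 genes nearest to each in culture pattern and, of the 3 genes with the smallest p in each list, those that passed. Exceptions to this rule were Cebpb, Cebpa, Xbp1, Mafk, the eIF2 kinases, the genes picked by the study and the cell type markers. Alternatives changed the array scaling, the handling of dim probes, of several probes per gene and of technical arrays, the use of the replicate number, the eBayes prior and the adjustment, or left out 1 culture. Promoter sequences and gene positions come from RefSeq (GRCm38.p6).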

Additional observations from a re-analysis of the deposited data

How the results depend on the processing

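Atf5 and Ddit3 kept their direction and passed the test in all 21 alternatives of the test by gene, with log2 fold changes of 3.29 to 4.02 and 3.35 to 3.71. Each factor has 1 probe, so the ways of summarizing several probes could not change its values. These, the dim-probe filter, the eBayes prior, the adjustment, the replicate block and both fits of 18 arrays changed only the test, not the fold change. The calls of the other factors rest on few cultures. Leaving out 1 culture at a time gave 1.15 to 1.45 for Atf3, 0.92 to 1.17 for Atf4 and 0.39 to 0.71 for Jdp2, and 2 to 4 of the 5 factors passed by gene and 2 to 3 by probe, while 33 to 135 genes in all passed as higher, the fewest without HF culture 2. By gene, Atf3 no longer passed without 4 of the 6 cultures and Atf4 without 5. By probe, Atf3 passed in none of these 6 fits (limma adjusted p 0.0517 to 0.102). The difference Atf3 minus Atf4 ran between -0.017, without HF culture 3, and 0.46, without HF culture 2.

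With the median over technical arrays, Atf4 was 0.95 (adjusted p = 0.105) and 133 genes passed as higher, against 242. With technical array 1, 2 or 3 alone, a choice made after seeing the data, Atf3 was 1.23, 1.11 and 1.5 (adjusted p 0.079, 0.325 and 0.0517) and Atf4 0.98, 1.05 and 1.08 (0.0628, 0.407 and 0.161), 2 factors passed each time by gene and by probe, and 106, 10 and 48 genes passed as higher. With all 18 arrays as separate samples, which treats technical arrays as cultures, 1293 genes passed as higher and Jdp2 passed at 0.55 (adjusted p = 0.0281), while a random block for the culture gave 615. Centering on olfactory receptor probes gave 137. The labels do not say whether equal replicate numbers mark a pair, and the main test did not use them. Same-numbered HF and MAZ1310 cultures deviated from their group means with correlations of 0.672, 0.0792 and 0.69. Differently numbered ones ran between -0.685 (HF culture 3 with MAZ1310 culture 1) and 0.265 (HF culture 3 with MAZ1310 culture 2). Each HF culture correlated best with the MAZ1310 culture of its number, whereas MAZ1310 culture 2 correlated best with HF culture 3. For HF culture 2 the best value, 0.0792, was close to its 0.0184 with MAZ1310 culture 1. Deviations within a treatment cancel out, so these correlations are tied to each other. With the replicate number as a block, 5 factors passed, Jdp2 at 0.55 (adjusted p = 0.0396), and 891 genes passed as higher. The causes were not tested. With no detection call in the table, how much of the dim MAZ1310 signal of Ddit3 and Atf3 is background is not known.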
